A study of Mus musculus with 2 samples.

Results

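Monocytes of EMT6 tumors were chosen by their counts of Ly6c2, Plac8, Ccr2 and F13a1 in single-cell RNA sequencing, and 305 of the 21985 cells that passed the filter met the rule. A cell was a member when the 4 genes together made up at least 0.1% of its unique molecular identifiers (UMIs, the tags that mark single captured transcripts) and at least 2 UMIs, with at least 0.2% from Lyz2, Tyrobp and Fcer1g, which myeloid cells share. Among further limits, cells with 0.2% or more from the complement genes C1qa, C1qb and C1qc, 1% or more from the neutrophil genes S100a8 and S100a9, or over 2 UMIs of the keratins Krt8 and Krt18 were left out. The 4 marker genes and the excluded genes therefore differ from other populations by construction, and their values are given as a description of the choice.

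EMT6 is a mammary tumor line of the BALB/c mouse used as a model of triple-negative breast cancer. The study injected 200000 EMT6 cells under the skin of female BALB/c mice aged 5 to 6 weeks and began treatment once tumors could be felt. In the group named Olaparib + LLY-283, the PRMT5 inhibitor LLY-283 was dosed at 50 mg/kg by a schedule of 3 days on and 4 days off, and the PARP inhibitor olaparib daily at 50 mg/kg. In the group named Combo, the same 2 agents were given together with 200 µg of an anti-PD-1 antibody every 3 days. Each group was represented by 1 library, made from the pooled tumors of 3 mice after enzymatic dissociation, lysis of red blood cells and removal of dead cells. No library without drug treatment was used here, so both groups carry LLY-283 and olaparib. A difference between groups cannot be told apart from one between pools of animals or between library preparations. With 1 library per group no test was possible, and the 95% intervals below cover counting error only. Pairs of values are given for Olaparib + LLY-283 first and for Combo second, unless stated otherwise.

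From Olaparib + LLY-283 came 140 monocytes with 282660 UMIs in all and 1802.5 per cell in the median. From Combo came 165 monocytes with 1305812 UMIs, 7777 per cell in the median. The Combo members thus had 4.31-fold more UMIs per cell in the median, and tumor cells of the same libraries differed as well, with medians of 10409 and 48073 UMIs. The reads behind them were not analysed here. Of the members' UMIs, 17.8% came from the Olaparib + LLY-283 library, so a gene with 20 UMIs over both libraries and equal levels gives 3.56 UMIs there. The libraries shared 39 cell barcodes, 28 of them among filtered cells and 0 among the monocytes.

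Monocytes are made in the bone marrow, circulate in blood and enter inflamed tissues and tumors. In mice the classical type carries the surface protein Ly6C and the chemokine receptor CCR2, through which the ligand CCL2 draws it out of the marrow, while the nonclassical type depends on the transcription factor Nr4a1 and patrols vessels. In tumors, classical monocytes are a known source of macrophages and of antigen-presenting cells, and they lose Ly6C as they mature.

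Ly6c2 (chr15:75108158-75111970, minus strand, GRCm38), which encodes the Ly6C surface protein, gave 34 UMIs in 24 of 140 monocytes of Olaparib + LLY-283 and 130 UMIs in 46 of 165 of Combo. Scaled to 1000000 UMIs of the summed members (CPM), this was 120.3 (95% interval 83.3 to 168) and 99.6 (83.2 to 118). Most members of both libraries therefore carried no Ly6c2 UMI, and the name of the population rests on the sum of the 4 genes and not on Ly6c2 in each cell. Its near-identical neighbor Ly6c1 was at 103 and 88.8 CPM, and reads of the pair may be divided between them with error. Plac8 (chr5:100553725-100572245, minus strand), a gene of many blood leukocytes, was at 750.0 and 687 CPM, with UMIs in 58 and 104 members. Ccr2 (chr9:124101950-124113557, plus strand), the receptor for CCL2, was at 874 and 864 CPM, with UMIs in 105 and 141 members. Ccr2 was the marker found in the most members of either library. F13a1 (chr13:36867178-37050244, minus strand), the catalytic subunit of coagulation factor XIII, was at 488 and 514 CPM, with UMIs in 60 and 111 members. C1q-high macrophages, which were not chosen by F13a1, held it at 510.5 and 675 CPM, so F13a1 did not set monocytes apart from them. All 4 are protein-coding genes.

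**Figure D1:**
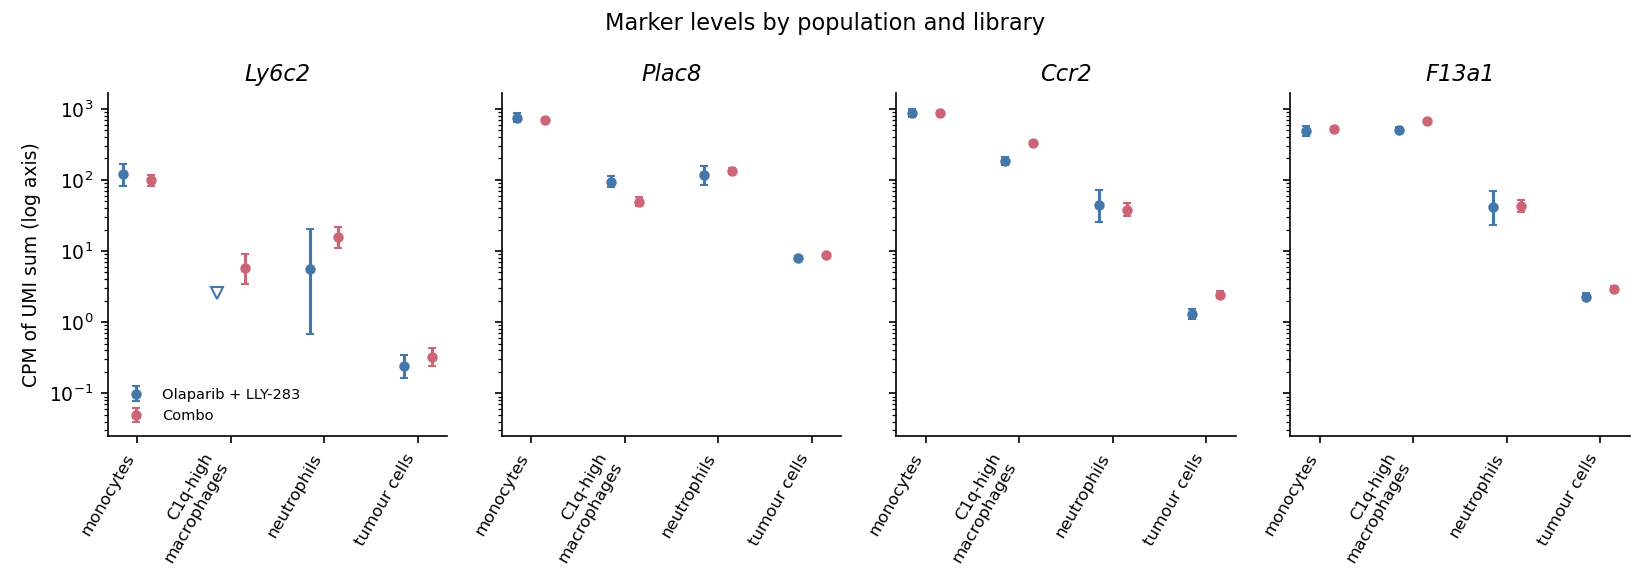
CPM of the 4 marker genes on a log axis, in 4 populations and both libraries; points are sums of UMIs over all cells of a population, bars are exact Poisson 95% intervals, and the open triangle marks a count of 0 at its upper limit. Ly6c2, Plac8 and Ccr2 were highest in monocytes, whereas F13a1 in the C1q-high macrophages, at 510.5 and 675 CPM, was not below its level in monocytes.

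The share of members with a marker UMI differed before and after thinning. Ly6c2 was seen in 17.1% and 27.9% of monocytes, and in 9.39% and 9.33% after each cell was thinned to 1000 UMIs, which left out 22 and 4 members. In tumor cells, which should lack the gene, the gene was seen in 0.267% and 1.43% before and in 0.0300% and 0.0286% after the same thinning. Ccr2 was seen in 105 of 140 and 141 of 165 members and, after thinning, in 58.1% and 51.2%, against 0.136% and 0.259% of thinned tumor cells. Thinned shares were 32.2% and 35.8% for Plac8 and 29.5% and 32.0% for F13a1. For Ly6c2 and Ccr2, the higher unthinned shares of the Combo library were thus not matched by higher CPM or by higher thinned shares. Of the 140 members from Olaparib + LLY-283, 55 carried UMIs of 1 of the 4 genes, 67 of 2, 14 of 3 and 4 of all 4. Of the 165 from Combo the counts were 20, 73, 52 and 20.

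The thresholds cut through a continuous range. The smallest marker share of a member was 0.101% and 0.102%. Among cells that met every other criterion, 369 and 315 failed on the markers alone. Of these, 225 and 193 had 0 marker UMIs, 95 and 33 had 1, and 49 and 89 had 2 or more. Among those with 2 or more, the nearest lay at 0.0991% and 0.09996%. The C1q criterion alone kept out 110 and 66 cells, with the nearest at 0.204% and 0.210%, against highest values of 0.166% and 0.198% among members.

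Members differed widely in what else they carried. Ccr2 was the leading marker, with more UMIs than each of the other 3, in 56 and 76 members, Plac8 in 29 and 48, F13a1 in 22 and 29 and Ly6c2 in 4 and 2, while 29 and 10 were tied. Members led by Ccr2 held Lyz2, which encodes lysozyme, at 13188 and 14073 CPM, and members led by Plac8 at 3805 and 6107 CPM. Fn1, which encodes fibronectin, was at 2241 and 3492 CPM in the Ccr2-led and at 319 and 1229.6 CPM in the Plac8-led members. In both libraries Lyz2 and Fn1 were lower where Plac8 led. H2-Aa, the alpha chain of an MHC class II molecule, went the other way, at 1182 and 524 CPM where Ccr2 led and at 2833 and 1822 CPM where Plac8 led.

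Some members, 4 and 13 of them led by Plac8, carried genes of other cell types. Genes of plasmacytoid dendritic cells (Siglech, Ccr9, Klk1, Cox6a2 and Pacsin1) gave 2 or more UMIs in 5 and 8 members. These cells held Siglech, a surface receptor of that cell type, at 1886 and 2079 CPM and Irf8, a transcription factor of dendritic cells and monocytes, at 2322 and 3051 CPM. Lyz2 in them was at 290.2 and 111 CPM, and Csf1r, the receptor for the monocyte growth factor, at 0 UMIs. Their Ly6c2 level was 580.4 and 1017 CPM, above the mean of all members, so Ly6c2 alone did not separate them from monocytes. Genes of natural killer (NK) cells (Ncr1, Klrb1c, Nkg7, Prf1 and Gzma) gave 2 or more UMIs in 1 and 9 members. In these, the granzyme gene Gzmc was at 8587 and 9783 CPM, while Csf1r was again at 0 UMIs. The name monocyte is not borne out for these 6 and 17 cells. The other 134 and 148 members held Lyz2 at 10816 and 12424 CPM, Csf1r at 297 and 384 CPM and Ly6c2 at 110.0 and 59.7 CPM. Among them, 28 and 20 cells had at least 1% of their UMIs from MHC class II genes. These class II high cells held 3 of 3 and 30 of 30 UMIs of Cd209a, 1 of 10 listed genes of conventional dendritic cells. Over all 134 and 148 members, Flt3 and Xcr1 gave 0 and 1 UMIs each and Clec9a 0 and 2. Zbtb46 and Snx22 gave 0 in either library. Ccr7 gave 3 and 7, Itgax 3 and 17, Fscn1 9 and 24 and H2-DMb2 10 and 60. The name monocyte is less certain for the class II high cells, and whether they are dendritic cells was not tested. A member at 4.96% class II in Olaparib + LLY-283 had 0% Lyz2, and one at 5.74% in Combo 0.0113%. Without the cells with plasmacytoid or NK genes, Plac8-led members still had less Lyz2, at 4315 and 7753 CPM, and more H2-Aa, at 3151 and 2169 CPM, than Ccr2-led members.

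F13a1-led members carried genes known from tissue-resident macrophages, although all members had little or no C1q by the rule. Mrc1, the mannose receptor, was at 777 and 1899 CPM in them, against 573 and 467 CPM where Ccr2 led. Cd163, the haptoglobin-hemoglobin receptor, was at 379 and 389.8 CPM, against 8.69 and 1.44 CPM. Folr2, a folate receptor, was at 289 and 639 CPM, against 43.4 and 149 CPM. In both libraries all 3 genes were higher in F13a1-led than in Ccr2-led members. Ccl8, a chemokine, was at 1229 and 365 CPM in F13a1-led and at 26.1 and 11.5 CPM in Ccr2-led members. Groups of members were formed from the markers after the data were seen, so these contrasts are descriptions.

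MHC class II genes were concentrated in a minority of members. The 8 listed class II genes together had a median of 0.122% and 0.0927% of a member's UMIs, with maxima of 6.55% and 5.74%. At least 1% was reached by 30 and 23 members, and 38 and 18 members had no class II UMI. Of all H2-Aa UMIs, 41.5% and 53.6% lay in the 5 members with the most. Class II high members held Spp1, which encodes osteopontin, at 1289 and 918 CPM and Fn1 at 689.7 and 859 CPM, below 4029.6 and 5512 CPM of Spp1 and 1737 and 2689.5 CPM of Fn1 over all members. Lyz2 showed a similar breadth, with medians of 0.814% and 0.840% of a cell's UMIs, 0 UMIs in 7 and 11 members, and maxima of 4.00% and 6.36%.

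**Figure D2:**
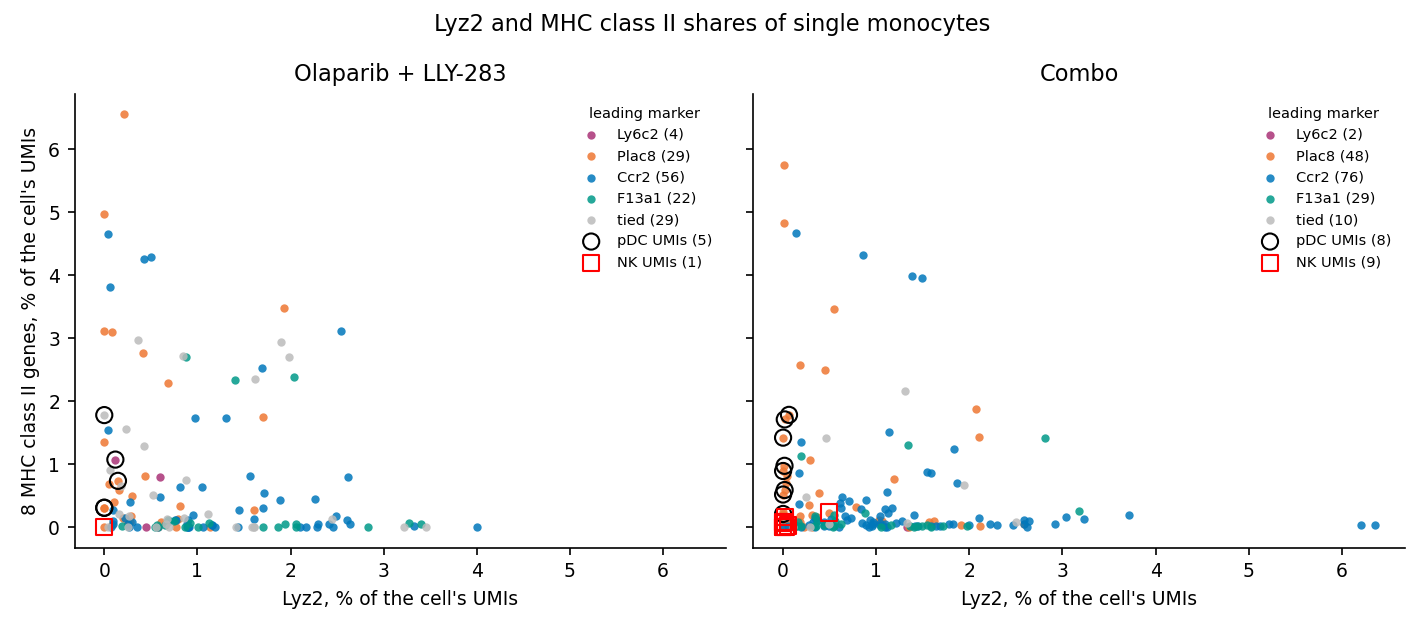
Each point is a member, placed by the percent of its UMIs from Lyz2 and from 8 MHC class II genes, colored by its leading marker; circles and squares mark members with 2 or more UMIs of plasmacytoid dendritic cell (pDC) or NK genes. Class II reached 6.55% and 5.74% of a cell's UMIs, and the circled and squared cells lay mostly at the low end of Lyz2.

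Under the rule as given, the share of monocytes among myeloid cells did not differ between the libraries beyond counting error. Under some settings with further limits in UMIs per cell it was lower in Combo. Of 1648 myeloid cells, 8.50% (exact Clopper-Pearson 95% interval 7.19 to 9.95) were members in Olaparib + LLY-283, and of 1940 in Combo 8.51% (7.30 to 9.84). Over the same denominators, C1q-high macrophages were 32.6% (30.4 to 35.0) and 13.2% (11.8 to 14.8), and neutrophils 26.9% (24.8 to 29.2) and 56.6% (54.4 to 58.8). The share of C1q-high macrophages was lower in Combo and that of neutrophils higher. Neutrophils had few UMIs in Olaparib + LLY-283, with a median of 685.5 next to a lowest value of 500 and 390 of 444 cells under 1000, against a median of 2016 and 45 of 1098 cells in Combo. How far this set the number of neutrophils, and so the denominator, was not tested. Without members with 2 or more UMIs of T, NK, B, plasmacytoid dendritic or granulocyte progenitor genes, the monocyte shares were 7.04% and 4.64%. With 0 keratin UMIs allowed they were 9.04% and 6.51%, and with at least 1000 UMIs per cell 11.6% and 8.90%. These settings fix a number of UMIs per cell, so they fall unequally on libraries whose members differed 4.31-fold in UMIs. The rule as given also fixes such numbers, with at least 2 marker UMIs and at most 2 keratin UMIs. Of cells that failed on the markers alone, 95 and 33 had 1 marker UMI, and the median keratin count of members was 0 and 1. How far this set the shares of 8.50% and 8.51% was not tested. With the rule applied after thinning to 1000 UMIs the shares were 6.15% and 5.81%, and with a marker threshold of 0.2% 4.07% and 4.23%. Set against monocytes and C1q-high macrophages only, members were 20.6% (17.7 to 23.9) of 678 cells and 39.1% (34.4 to 43.9) of 422 cells. Among all filtered cells, of which tumor cells were the most numerous class, they were 0.873% of 16029 and 2.77% of 5956. The denominators hold cells that dissociation and removal of dead cells let through, and shares of a pool of 3 mice have no replicate check.

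**Figure D3:**
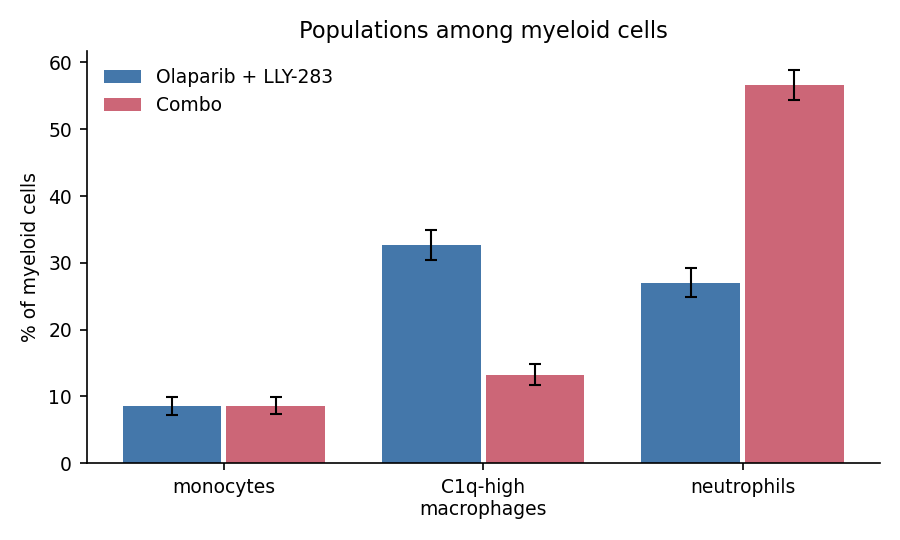
Bars give each population as a percent of myeloid cells in the 2 libraries, with exact Clopper-Pearson 95% intervals. Monocytes were 8.50% and 8.51%, next to 32.6% and 13.2% for C1q-high macrophages and 26.9% and 56.6% for neutrophils.

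Which genes outside the rule separated monocytes from macrophages was then asked within each library, where UMIs per cell differ less. C1q-high macrophages (538 and 257 cells) met the myeloid, neutrophil and keratin limits and had 0.2% or more of their UMIs from C1qa, C1qb and C1qc. A gene was called when it was past 2-fold in the same direction in both libraries. Of 7432 genes with at least 20 UMIs over monocytes and macrophages in each library, 88 (1.18%) were higher in monocytes than in C1q-high macrophages and 89 (1.20%) lower. The lower count moved with the choice of members, to 176 with a marker threshold of 0.2%, 157 without members with UMIs of other cell types and 199 with the rule applied after thinning. The populations were chosen from the same counts, so these shares are the background for the gene lists below and not a test. A gene could also reach the minimum through the population where it was high, and such a gene had to differ.

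Some classical monocyte genes that the rule did not use were called higher in members. Of 13 such genes with enough UMIs, 6 were called higher than in C1q-high macrophages and 0 lower, with medians over the list of 0.60 and 0.62 on the log2 scale, against -0.01 and 0.04 over all genes. Vcan, which encodes the matrix proteoglycan versican, was at 439 and 749 CPM in monocytes and at 68.4 and 84.0 CPM in C1q-high macrophages. Chil3, a chitinase-like secreted protein, was at 74.3 and 98.0 CPM against 0.705 and 2.43 CPM. In Olaparib + LLY-283 these were 21 UMIs in monocytes and 1 in macrophages, so Chil3 reached the minimum through the monocytes and is a description only. Vcan was higher in monocytes of either library. Ifitm6, Ms4a4c, Thbs1 and Clec4e were the other 4. Thbs1, which encodes thrombospondin-1, was at 654 and 760.4 CPM against 110.0 and 109.5 CPM in C1q-high macrophages. Ifitm6, a membrane protein of the interferon-induced transmembrane family, was at 92.0 and 214 CPM against 19.7 and 29.8 CPM. Ms4a4c was at 336 and 372 CPM against 113 and 117 CPM. Clec4e, a C-type lectin receptor, was at 276 and 367 CPM against 110.0 and 143 CPM, and neutrophils held it at 759 and 1361 CPM. Of 5 nonclassical genes, Nr4a1 was higher than in C1q-high macrophages, at 173 and 267 CPM against 71.9 and 114 CPM, and Fabp4, a fatty acid binding protein, had 0 and 2 UMIs, so that it reached the minimum through the macrophages and is a description only.

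Most class II genes stood above the macrophages. Of 7 with enough UMIs, 5 (H2-Aa, H2-Ab1, H2-Eb1, H2-DMb1 and Cd74) were called higher than in C1q-high macrophages and 0 lower, with list medians of 1.99 and 1.24 on the log2 scale. H2-Aa (chr17:34282744-34287823, minus strand) was at 1348 and 789 CPM in monocytes and 185 and 226 CPM in C1q-high macrophages. H2-Eb1, the beta chain of another class II molecule, was at 711 and 461 CPM against 142 and 181 CPM. Cd74, the invariant chain that escorts class II molecules, was at 3580.3 and 2587 CPM, against 899.7 and 1089 CPM. In both libraries all 3 were higher in monocytes, and the H2-Aa sum came largely from the class II high members described above. Among members without plasmacytoid or NK genes, the class II high ones held 3 of 3 and 30 of 30 Cd209a UMIs. Of Ccr7, a chemokine receptor, they held 3 of 3 and 6 of 7 UMIs, and of Itgax 1 of 3 and 6 of 17. Zbtb46 gave 0 UMIs in them, and Lyz2 was at 6881 and 9120 CPM. Whether these members are dendritic cells, and their part in the class II calls, was not tested. Without the members with plasmacytoid or NK genes, a choice made after the data were seen, 5 of 7 were again called higher. Class II genes are close paralogs, so their separate levels are less certain than their sum, which was 6962 and 4881 CPM in monocytes and 1661 and 2046 CPM in C1q-high macrophages.

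Class II promoters are known for a conserved set of boxes, among them an inverted CCAAT box (ATTGG), which is bound by the factor NF-Y. The 250 bases before the start of H2-Aa and H2-Eb1, the alpha and beta chains of 2 class II molecules, are shown because these 2 genes stood furthest above C1q-high macrophages in the list. They are taken from RefSeq on GRCm38.p6, at chr17:34287824-34288073 on the minus strand and chr17:34305617-34305866 on the plus strand, and read 5′ to 3′ towards the gene. Capitals mark ATTGG, or CCAAT where it lies on the other strand:
H2-Aa: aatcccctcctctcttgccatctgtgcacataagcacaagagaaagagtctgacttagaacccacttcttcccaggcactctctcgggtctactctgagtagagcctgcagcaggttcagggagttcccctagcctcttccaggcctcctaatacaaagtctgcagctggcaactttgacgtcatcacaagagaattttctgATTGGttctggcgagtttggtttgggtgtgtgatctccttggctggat
H2-Eb1: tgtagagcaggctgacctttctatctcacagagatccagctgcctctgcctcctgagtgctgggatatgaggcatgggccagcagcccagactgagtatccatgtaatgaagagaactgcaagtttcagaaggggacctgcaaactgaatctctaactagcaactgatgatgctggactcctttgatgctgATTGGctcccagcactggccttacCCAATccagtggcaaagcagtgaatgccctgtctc
The match in H2-Aa begins 48 bases before the start, and those in H2-Eb1 59 and 35 bases before it, the latter on the other strand. Of the 8 class II genes listed, 5 have a promoter in the table and all 5 hold ATTGG on either strand, as do 33.8% of all 32851 promoters of this length. A match of 5 letters is a description of the sequence and not a bound site.

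Inflammatory genes were divided. Il1b, which encodes the cytokine interleukin-1 beta, was at 1542 and 1699 CPM in monocytes and 321 and 412 CPM in C1q-high macrophages. It was called higher, with Tnfaip3 the other call among 12 inflammatory genes. It was far higher in neutrophils, at 11440 and 16360 CPM. Of 15 chemokine ligands, Ccl24, Cxcl2 and Cxcl3 were called higher than in C1q-high macrophages, and Ccl8 and Ccl12 lower. Cxcl2, which attracts neutrophils, was at 5675 and 4354 CPM in monocytes and 2678 and 2071 CPM in C1q-high macrophages, with 30173 and 30787 CPM in neutrophils. Ccl8 was at 403 and 109.5 CPM in monocytes against 2004 and 1111 CPM. Ccl12, which attracts monocytes, was at 251 and 214 CPM against 860 and 701 CPM. Cxcl10, a ligand of the T cell receptor CXCR3, was at 198 and 219 CPM in monocytes and 52.9 and 131 CPM in C1q-high macrophages, which missed 2-fold in the Combo library, and 78.6% and 81.5% of its UMIs lay in 5 members of each library.

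Of the genes induced by type I interferon, few were past 2-fold. Of 30 with enough UMIs, 5 (Isg15, Mx1, Isg20, Slfn1 and Slfn4) were called higher than in C1q-high macrophages and 0 lower, with list medians of 0.58 and 0.77 on the log2 scale. Isg15, a ubiquitin-like protein, was at 485 and 389.8 CPM in monocytes and 185 and 152 CPM in C1q-high macrophages. Neutrophils held it at 910 and 1265 CPM, above the monocytes. Slfn1, a member of the Schlafen family, was at 163 and 188 CPM against 42.3 and 53.9 CPM. For genes induced by interferon-gamma, 1 of 15 was higher than in C1q-high macrophages, the transcription factor Irf1, at 149 and 131 CPM against 51.5 and 57.8 CPM. The promoter of Isg15, chosen after its values were seen, is shown as an example of the type I interferon genes called. Capitals mark GAAA, any 2 bases and again GAAA, a core that interferon-stimulated response elements share, in the 250 bases before its start (RefSeq, GRCm38.p6), at chr4:156200819-156201068 on the minus strand:
Isg15: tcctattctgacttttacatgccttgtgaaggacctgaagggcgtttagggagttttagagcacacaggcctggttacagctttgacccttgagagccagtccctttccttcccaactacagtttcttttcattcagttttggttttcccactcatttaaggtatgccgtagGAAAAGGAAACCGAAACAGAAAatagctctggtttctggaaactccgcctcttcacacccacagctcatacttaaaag
In Isg15, 3 overlapping matches begin 78, 72 and 66 bases before the start. Promoters were given for 24 of the 34 type I interferon genes listed, of which 12 held the letters on either strand, and for 15 of 20 interferon-gamma genes, of which 11 did, whereas of the 5 class II genes 0 did, against 2.98% of all promoters.

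A minority of macrophage maturation genes were called lower in members. Of 22, 4 (Cd163, Folr2, Ctsd and Lpl) were called lower than in C1q-high macrophages and 0 higher. Lpl, with 0 and 1 UMIs in monocytes, reached the minimum through the macrophages and is a description only. The list medians were -0.81 and -0.86 on the log2 scale. Ctsd, the lysosomal protease cathepsin D, was at 1263 and 1156 CPM in monocytes against 2588 and 2509 CPM. Apoe, which encodes apolipoprotein E, was at 2728 and 2347 CPM against 6828 and 4562 CPM, which missed 2-fold in the Combo library. Cd163 was at 92.0 and 73.5 CPM against 198 and 194 CPM, and Folr2 at 127 and 207 CPM against 327 and 420 CPM. Of the members' Cd163 UMIs, 21 of 26 and 94 of 96 lay in F13a1-led members, which held it at 379 and 389.8 CPM, above the macrophages, so the lower level over all members did not hold for them. Folr2 in F13a1-led members was at 289 and 639 CPM, below the macrophages in Olaparib + LLY-283 and above them in Combo. Trem2, a lipid receptor of macrophages, was at 262 and 306 CPM against 542 and 550 CPM. Without the members with plasmacytoid or NK genes, Folr2 and Ctsd were no longer past 2-fold against C1q-high macrophages in both libraries, which left Cd163 beside Lpl. Hmox1, which encodes the enzyme heme oxygenase-1, was at 754 and 229 CPM in monocytes against 1576 and 492 CPM in C1q-high macrophages.

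Of 19 genes of glycolysis and hypoxia, 15 transcription factors, 14 myeloid receptors, 4 Fc receptors, 8 class I genes, 8 drug targets and 13 immediate early and heat shock genes, 0 were called in either direction against C1q-high macrophages. Summed over the list, glycolysis and hypoxia genes stood at 11873 and 10393 CPM in monocytes and 13809 and 12784 CPM in C1q-high macrophages. Spi1, which encodes the myeloid factor PU.1, was at 308 and 296 CPM in monocytes and 279 and 336 CPM in C1q-high macrophages, and Csf1r at 287 and 355 CPM against 416 and 533 CPM. Itgb7 was the only call among 13 chemokine receptors and adhesion genes, where it was higher, and Ccnb2 the only call among 15 cell cycle genes, where it was lower. Without the members with plasmacytoid or NK genes, Itgb7 was not called.

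The 10 genes furthest above C1q-high macrophages included genes of few cells. Klk1, Gzmc and Gzmd led, and their UMIs came from 5 and 8 members for Klk1, 2 and 11 for Gzmc and 1 and 2 for Gzmd. Without members with 2 or more UMIs of T, NK, B, plasmacytoid dendritic or granulocyte progenitor genes, the smaller log2 ratio of all 3 genes over C1q-high macrophages turned negative. For Klk1, one of the genes by which members were left out, this follows by construction. Without the members with plasmacytoid or NK genes only, Klk1 and Gzmd had 0 UMIs in either library and Gzmc 1 and 6. A ratio at 0 UMIs is set by the prior counts and has no measured size. Chil3 followed, with UMIs in 12 and 31 members, and then Rnase6, Ly6c1, Vcan, Tspan13, Thbs1 and Ltb. The 10 furthest below C1q-high macrophages were Fcna, Igf1, Lpl, Cdk18, Gas6, Hist1h2bc, Itga9, Ccl8, Fbxo32 and Lyve1. Without the members with plasmacytoid or NK genes, Olaparib + LLY-283 monocytes held 0 UMIs of Igf1, Lpl and Cdk18 and 1 of Itga9. They held 2 each of Fcna and Fbxo32, 4 of Hist1h2bc, 5 of Lyve1 and 6 of Gas6. All but Ccl8 thus reached the minimum mainly through the macrophages there, and their rank is a description only. Gas6, a ligand of the phagocytic receptor Mertk, was at 21.2 and 16.1 CPM in monocytes against 144 and 142 CPM. Lyve1, a hyaluronan receptor, had 2 of 5 and 105 of 108 UMIs in F13a1-led members, which held it at 36.1 and 435 CPM against 188 and 410.5 CPM in C1q-high macrophages.

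**Figure D4:**
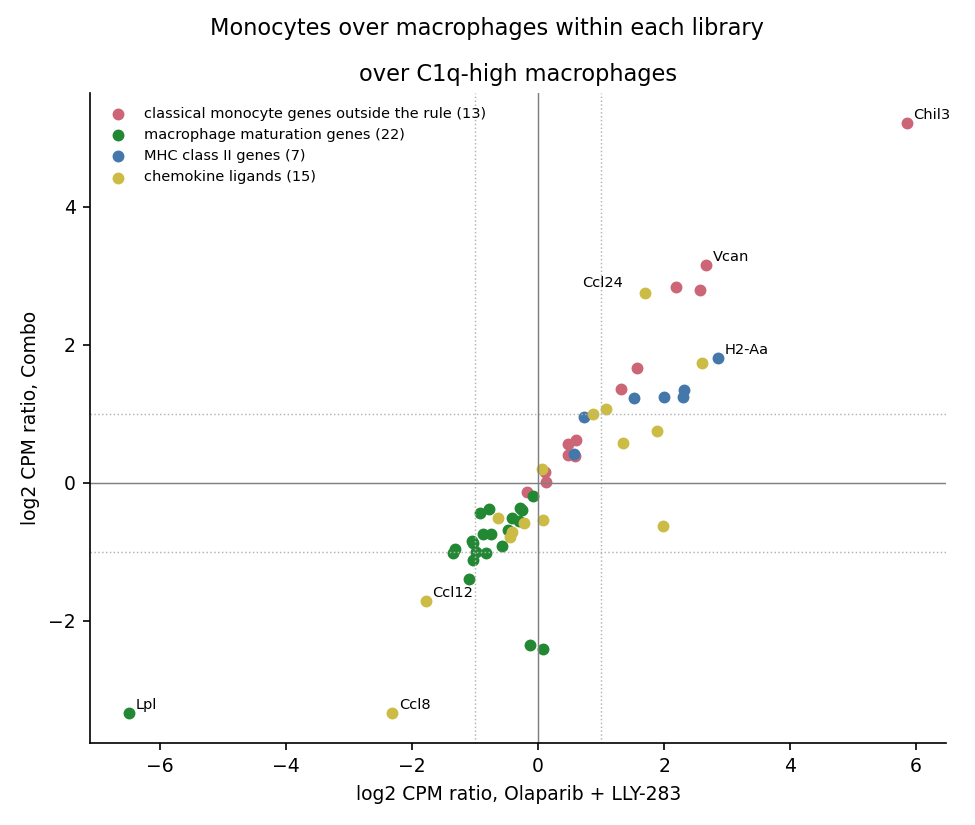
Each point is a gene of 4 lists with at least 20 UMIs in each library, placed by its log2 ratio of CPM, monocytes over C1q-high macrophages, in the Olaparib + LLY-283 and the Combo library, with prior counts summing to 1 where a count is 0; dotted lines mark 2-fold. All 7 class II genes lay in the upper right, and maturation genes mostly in the lower left.

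The final comparison was that of the 2 libraries, Combo over Olaparib + LLY-283, within monocytes. Of 7355 genes with at least 20 UMIs, 670 (9.11%) were 2-fold or more higher in Combo and 202 (2.75%) lower, and the median log2 ratio was 0.11. At a minimum of 50 UMIs, which leaves fewer genes to test, 202 were higher and 58 lower. With members limited to those without a Krt8 or Krt18 UMI, 372 were higher and 103 lower. At 20 UMIs and equal levels a gene gives 3.56 UMIs in Olaparib + LLY-283, so the calls include counting error. They were not separated into counting error and differences between 2 pools of tumors, and they carry no test.

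Among monocyte genes, few were past 2-fold between the libraries, at shares near the background. Of 15 classical genes outside the rule, 2 (Hp and Ifitm6) were called higher and 0 lower, with a median log2 ratio of 0.40, or 0.26 without the members with plasmacytoid or NK genes. The 4 genes of the rule had a median of -0.07, and Ly6c2 was at 110.0 and 59.7 CPM in the members without plasmacytoid or NK genes. Hp, which encodes haptoglobin, was at 53.1 CPM (95% interval 29.7 to 87.5) and 121 CPM (103 to 141), and Ifitm6 at 92.0 (60.1 to 135) and 214 (190.0 to 241). For both genes the intervals of the libraries do not overlap, but they cover counting error only. Of 7 neutrophil genes tested in the same members, 4 were also called higher, and their part in these 2 genes was not tested. Vcan, at 439 and 749 CPM, had a log2 ratio of 0.77 (0.50 to 1.05). Of 14 transcription factors 0 were called, with a median of 0.38, and of 5 nonclassical genes 1 (Spn), with 3 and 33 UMIs. Of 15 myeloid receptors, 2 were higher, Csf3r, which had 3 UMIs in the Olaparib + LLY-283 library, and Ifngr1, which encodes a chain of the interferon-gamma receptor. Ifngr1 was at 106 CPM (71.6 to 152) and 231 CPM (205 to 258), a log2 ratio of 1.11 (0.58 to 1.71), and without the members with plasmacytoid or NK genes its ratio was 0.90 and it was not called. It was at 83.2 and 111 CPM in C1q-high macrophages. Itga4, an integrin chain, was at 31.8 and 72.8 CPM and was the only call among 14 chemokine receptors and adhesion genes.

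Of 8 class II genes, 0 were called in either direction, and the median log2 ratio was -0.55. Below 0 were H2-Aa, H2-Ab1, H2-Eb1, Cd74 and Ciita, the coactivator of class II genes, whereas H2-DMa, H2-DMb1 and H2-DMb2, chains of the molecule that helps load peptides, were at 0.09, 0.35 and 0.46, each with an interval that included 0. H2-Aa was at 1348 CPM (1216 to 1490.3) and 789 CPM (741 to 838), a log2 ratio of -0.77 (-0.94 to -0.60), and the shares of members at 1% class II or more were 30 of 140 and 23 of 165. In the C1q-high macrophages the same gene was at 185 and 226 CPM. Of 9 class I genes, which nearly all cells carry, 0 were called, with a median of 0.08.

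Called type I interferon genes were near the background in share. Of 32 type I interferon genes, 3 were called higher (Ifit3b, Oasl2 and Dhx58), each with 7 or fewer UMIs in the Olaparib + LLY-283 library, and 0 lower, with a median of 0.16. Ifit3b shares most of its sequence with Ifit3, so its reads are uncertain. Of 14 interferon-gamma genes, 0 were higher and 2 (Iigp1 and Cxcl9) lower, with a median of 0.10. Cxcl9 had 47 UMIs in 5 members and 56 UMIs in 7 members, so few cells set its log2 ratio of -1.94.

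Chemokine ligands and cell cycle genes had 3 lower calls each, where 2.75% of all tested genes were lower. Of 15 chemokine ligands, 3 were lower (Ccl8, Cxcl3 and Cxcl9) and 0 higher, with a median of -0.47. Without the members with plasmacytoid or NK genes, Cxcl3 was at a log2 ratio of -0.95 and no longer called. In that setting Ccl5 was called lower, at -2.18, from only 15 and 14 UMIs. In C1q-high macrophages Ccl5 was higher in Combo, at 20.4 and 55.1 CPM. Ccl8 had 114 UMIs in 16 members and 143 UMIs in 19 members, at 403 and 109.5 CPM. Fabp5, which binds fatty acids in the cytoplasm, was the only call among 20 maturation genes, with 182 UMIs in 22 members and 63 UMIs in 24 members, at 644 CPM (554 to 745) and 48.2 CPM (37.1 to 61.7). Of all genes with at least 50 UMIs it was furthest towards Olaparib + LLY-283, with a log2 ratio of -3.72 (-4.18 to -3.32), and 67.6% of its Olaparib + LLY-283 UMIs lay in 5 members. In C1q-high macrophages it was at 702 and 248 CPM. Hmox1 was at 754 CPM (656 to 862) and 229 CPM (204 to 256), a log2 ratio of -1.72 (-1.98 to -1.46), and was the only call among 9 suppressive genes. It was lower in Combo to a similar size in C1q-high macrophages, with a log2 ratio of -1.68. Of 13 cell cycle genes, 3 were lower (Stmn1, Birc5 and Cenpf), with a median of -0.52, and of 19 genes of glycolysis and hypoxia 1 (Adm), which was not called without the members with plasmacytoid or NK genes. Of 14 inflammatory cytokine genes, 4 Fc receptors and 13 immediate early and heat shock genes, 0 were called. Il1b was at 1542 and 1699 CPM, with a log2 ratio of 0.14 (-0.01 to 0.29).

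Targets of the drugs were scarce in monocytes. Prmt5, the enzyme that LLY-283 inhibits, gave 3 and 24 UMIs, and Parp1, a target of olaparib, 14 and 109 UMIs, with log2 ratios of 0.76 (-0.93 to 3.17) and 0.75 (-0.06 to 1.67). Pdcd1, which encodes PD-1, gave 1 and 4 UMIs, and Cd274, its ligand, was at 56.6 and 31.4 CPM. No difference was detectable for these 4 at this depth. Of 8 such genes tested, 1 was called, Clns1a, a partner of Prmt5, with 8 and 76 UMIs. Without the members with plasmacytoid or NK genes its log2 ratio was 0.95, and 0 of 8 were called.

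**Figure D5:**
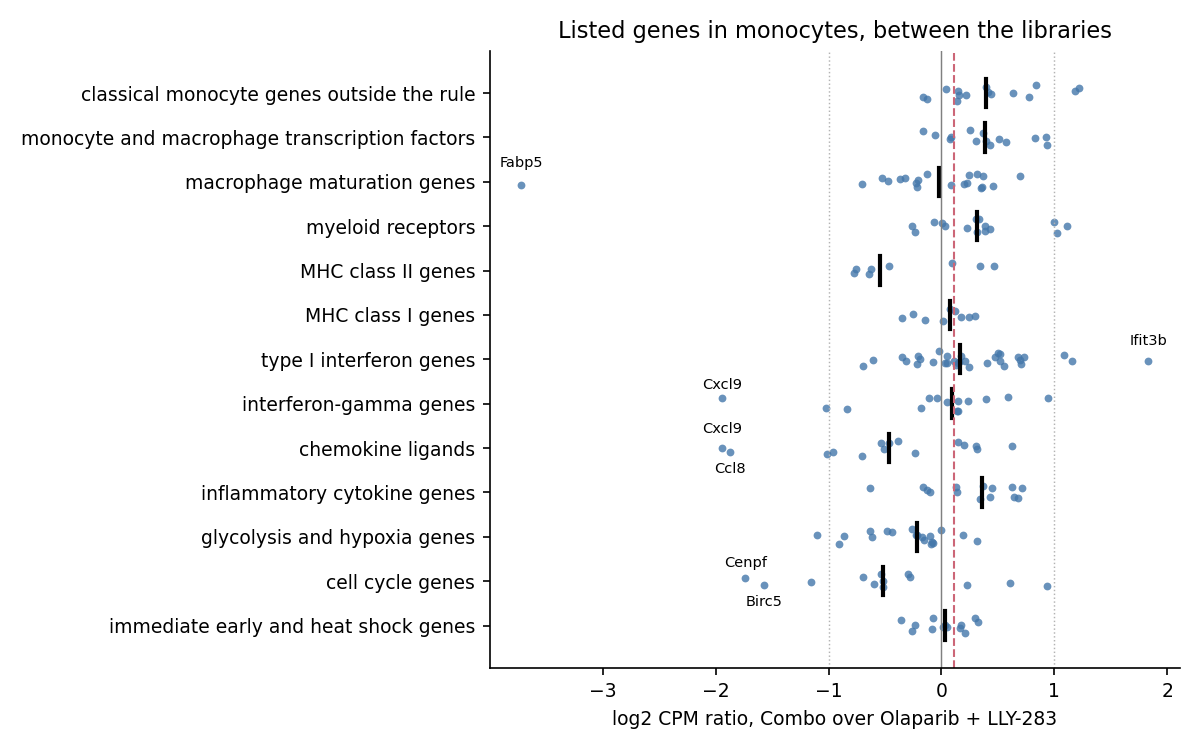
Log2 ratios of CPM, Combo over Olaparib + LLY-283, of listed genes with at least 20 UMIs in monocytes; black bars are list medians, the dashed line is the median of all 7355 genes (0.11) and dotted lines mark 2-fold. Class II genes had a median of -0.55 and cell cycle genes of -0.52, and Fabp5 stood farthest from the rest at -3.72.

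The genes with the largest ratios between the libraries were led by genes of other cell types. The 10 furthest up among those with at least 50 UMIs were Nkg7, G0s2, Spty2d1, Ece1, Gem, Gzmb, Gk, C130026I21Rik, Polr2b and Il2rb, all with 3 or fewer UMIs in the Olaparib + LLY-283 library. Nkg7, a granule protein of cytotoxic lymphocytes, had 0 UMIs there and 64 UMIs in 11 Combo members, and Gzmb 96 UMIs in 8 Combo members. Spty2d1, by contrast, had 2 UMIs and 104 UMIs, the latter in 63 members. Without the members with plasmacytoid or NK genes, Gzmb and Il2rb had 2 and 0 UMIs each and Nkg7 0 and 2, too few for a direction. The rest of these 10 genes stayed past 2-fold in that setting, with log2 ratios from 1.92 for Gem to 4.22 for G0s2. The 10 furthest down were Fabp5, Cxcl9, Ccl8, Hist1h2ap, Hmox1, Tnip3, Hist1h2ae, Ly6a, Tm4sf1 and Saa3. Ly6a was at 545 and 176 CPM, next to 407 and 495 CPM in tumor cells, and Tm4sf1 at 138 and 47.5 CPM, next to 720 and 542 CPM in tumor cells. Histone genes and Ly6a belong to families of near-identical copies, so their values are uncertain.

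Markers of other cell types moved with the libraries, and their part in the results was not tested. Summed over 9 neutrophil genes, monocytes held 147 UMIs (520.1 CPM) and 1167 UMIs (894 CPM), with 7 tested and 4 called higher (Csf3r, Mmp9, Hdc and G0s2), and neutrophils were 2.77% and 18.4% of the filtered cells. S100a8 was the most abundant of them in both libraries. Of 9 NK genes, 2 and 8 had a UMI, with 24 UMIs (84.9 CPM) and 290 UMIs (222 CPM) in all. Gzma was the most abundant, at 14 and 70 UMIs, and of 5 tested 3 were called higher (Ncr1, Nkg7 and Prf1), each at 0 UMIs in the Olaparib + LLY-283 library. The 8 plasmacytoid dendritic cell genes gave 548 and 553 CPM. The most abundant was Tcf4, with 73 of 155 and 320 of 722 UMIs, which tumor cells also held at 153 and 145 CPM, and 0 of 7 were called. T cell genes gave 8 and 81 UMIs (Trbc1 called higher of 2 tested), B cell genes 9 and 52 (Ighm, of 1 tested), and the 4 keratins with Epcam 44 and 135, mostly Krt8. Genes of conventional dendritic cells gave 31 and 184 UMIs, of fibroblasts 46 and 208, of endothelial cells 8 and 52, of platelets 8 and 28, of osteoclasts 16 and 93, of skeletal muscle 7 and 35 and of granulocyte progenitors 4 and 19. Genes of basophils or mast cells and of red blood cells were at 0 UMIs in the Olaparib + LLY-283 members and gave 14 and 3 UMIs in the Combo members. Without the members with plasmacytoid or NK genes, 616 genes were higher and 201 lower between the libraries and 80 and 94 against C1q-high macrophages. Without all members with 2 or more UMIs of T, NK, B, plasmacytoid dendritic or granulocyte progenitor genes, 397 were higher between the libraries and 157 lower than in C1q-high macrophages.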

How the data were processed

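Tumors of 2 treatment groups were profiled with 10x Genomics 3′ libraries, 1 per group. The authors deposited raw counts of UMIs for each gene in each cell, not normalized. The header of the matrices names Cell Ranger 6.1.2, whereas the study's methods name another version, and the submitters' processing notes name bcl2fastq 5.0.1, Seurat 4.1.0 and the build mm10. All 55450 gene identifiers were found in GENCODE M21, which gave positions.

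The filter required 200 or more genes per cell and a mitochondrial share below 20%. The members and the gene lists were chosen with earlier results of these data known. UMIs were summed over members and given as CPM with exact Poisson intervals, and ratios with exact conditional intervals, all at 95%. Log2 ratios used prior counts summing to 1, and called means 2-fold or more, over genes with at least 20 UMIs. Shares were also computed after thinning each cell to 1000 UMIs. Named genes were the rule's genes, members of the lists, markers of other cell types, and the 10 with the largest ratios in each direction (at least 50 UMIs between libraries, the smaller of both libraries against C1q-high macrophages). Doublets were kept, since the automatic threshold of Scrublet (scanpy 1.11.5) called 0 cells in either library. An alternative left out the 2056 and 269 cells with the highest doublet scores. Scripts used Python 3.11.15, numpy 2.4.6, scipy 1.17.1 and pandas 2.3.3, and were tested on simulated data. Alternatives changed the rule, the cell filter, the scaling and the minimum of UMIs. One further criterion of the rule, a population it sets apart and an alternative that changes it are not reported here.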

Additional observations from a re-analysis of the deposited data

Results flagged for a closer look

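For 1 gene the libraries differed past 2-fold in opposite directions in monocytes and in C1q-high macrophages, a difference that was not tested. Ifit3b, an interferon-induced gene with a near-identical copy, had a log2 ratio, Combo over Olaparib + LLY-283, of 1.83 in monocytes, from 2 and 35 UMIs, the latter in 9 cells. C1q-high macrophages held it at 9.17 and 2.13 CPM. Over all monocytes Ccl5, a chemokine, had a log2 ratio of 0.62. Without the members with plasmacytoid or NK genes it was -2.18, from 15 and 14 UMIs, against 1.42 in C1q-high macrophages. This difference was not tested either, nor how far the removal of members chosen by NK genes set it.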

How the results depend on the processing

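No paired analysis was possible because each group had 1 library. Results are given in the order shares of myeloid cells (Olaparib + LLY-283, Combo), genes higher and lower between libraries and against C1q-high macrophages, and values that moved are given. Of 86 values of these 6 results under up to 17 alternatives each, 57 stayed within the interval or within 1.5 times and 29 moved. A reversal was defined only for log2 ratios, so these shares and counts could not reverse. With a marker threshold of 0.2% the shares were 4.07% and 4.23%, with 125 genes lower between libraries and 176 lower than in C1q-high macrophages. Without Plac8 in the marker sum they were 6.43% and 6.55%, and with at least 1000 UMIs per cell they were 11.6% and 8.90%. Without members with 2 or more UMIs of T, NK, B, plasmacytoid dendritic or granulocyte progenitor genes, the shares were 7.04% and 4.64%, with 397 genes higher between libraries and 157 lower than in C1q-high macrophages. With 0 keratin UMIs the shares were 9.04% and 6.51%, with 372 genes higher and 103 lower between libraries. With the rule applied after thinning the shares were 6.15% and 5.81%, with 199 genes lower than in C1q-high macrophages. A minimum of 10 UMIs gave 1130 higher and 432 lower between libraries and 147 and 156 against C1q-high macrophages. A minimum of 50 gave 202 and 58, and 52 and 54, and no minimum gave 4624 and 1637, and 499 and 1141. Fewer or more genes tested account for these last by construction, and the cause of the others was not tested. Of 1275 values of the 75 single genes and lists, 1109 stayed, 155 moved and 11 reversed. Without members with UMIs of the 5 other cell types, the reversed log2 values were -2.41 for the NK list and -2.25 for Gzmb between libraries, and -1.13 for Klk1, -1.11 for Gzmc and -1.75 for Gzmd against C1q-high macrophages. Without members with plasmacytoid or NK genes, an alternative chosen after seeing the data, they were -0.68 for both the T cell and the NK list between libraries. Gzmb and Il2rb were at -3.57 each between libraries, from 2 and 0 UMIs. Against C1q-high macrophages Klk1 was at -1.24 and Gzmd at -1.90, with 0 UMIs in monocytes of either library. At such counts the prior counts set the ratio, so these are no measured sizes. Members were removed by NK genes and by Klk1, so the turns of the NK list and of Klk1 follow by construction. List values here are ratios of UMIs summed over a list, not medians over its genes. Depth limits the Olaparib + LLY-283 monocytes most, where a gene at 0 UMIs may still be present at up to 13.1 CPM.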
